A study of Mus musculus with 41 samples.

Results

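Caprin1 knockout (KO) cells were compared with wild-type (WT) cells after 8 h of α-amanitin, which gave 4 KO and 4 WT libraries, 8 of the 31 RNA-seq libraries in the count tables of a series of 41 mouse samples. The 4 KO libraries were 2 of KO clone 2 and 2 of KO clone 4, and all libraries of the 8 h table with these labels were used. The WT cells were of R1, a mouse embryonic stem cell (ESC) line. KO and WT cells alike had spent 4 days in 1 µM retinoic acid and no LIF, a cytokine added to keep ESCs undifferentiated, before α-amanitin, which stops RNA polymerase II, was added at 2 µg/ml. Each clone descends from its own founder cell, how the gene was disrupted is not given in the sources used here, and nothing says that the replicates were separate cultures, so p-values measure the spread between these libraries, which may be technical in part.

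CAPRIN1 binds RNA in the cytoplasm together with G3BP1 and G3BP2, the scaffold proteins of stress granules, and is known from cultured cells to influence the translation and storage of mRNAs. With α-amanitin the supply of new mRNA is cut, so that what can be sequenced hours later is mostly RNA made earlier, and short-lived mRNAs are depleted. These files hold no direct measure of how complete the block was. Retinoic acid without LIF moves ESCs out of pluripotency towards several fates, among them the extraembryonic endoderm, whose parietal branch lays down a thick basement membrane.

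The 8 libraries had totals of 7.24 to 10.6 M counts. Values are TMM-scaled CPM (counts per M counts of the library), and a gene was called at a false discovery rate (FDR) under 0.05 by edgeR's quasi-likelihood test with Benjamini-Hochberg adjustment. The WT libraries fell into pairs: WT replicates 1 and 2 carried 10960 and 14170 CPM of the ribosomal RNA-like gene CT010467.1, against 1394 and 870 CPM in WT replicates 3 and 4, and KO libraries carried 6751 and 1099 CPM in clone 2 and 1985 and 877 CPM in clone 4. A distance between libraries, a chi-square per gene in which 1 is sampling noise, was 1.93 and 2.34 within these WT pairs. Across the pairs it was 6.88 to 10.8. It was taken on raw counts, so that abundant genes weigh most. CT010467.1 was among the genes, so the distance is not separate evidence for the pairs. The distance was 3.24 between the clone 4 libraries, 5.79 between the clone 2 libraries, 17.3 to 27 between clone 4 and WT, and 90.4 to 101 between clone 2 and WT. Clone 4 and clone 2 were 80.2 to 87.8 apart, so the clones were farther from each other than clone 4 was from WT.

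Markers of the labelled cell type were present in every library, with Pou5f1, Sox2 and Nanog each above 39 CPM. The summed level of 10 extraembryonic endoderm markers was 48800 to 49200 CPM in clone 2 and 15600 to 16800 CPM in clone 4, against 10300 to 12300 CPM in WT. Most of this sum was the basement membrane genes Lama1, Lamb1 and Col4a1, with Col4a1 alone at 21700 and 20500 CPM in clone 2. Afp in clone 4 (1.72 and 0.938 CPM) overlapped with WT (1.5 to 2.01 CPM). All other values of these markers in KO libraries were above every WT library. The summed level of 10 fibroblast markers was 527 to 554 CPM in clone 2 and 2080 to 2350 CPM in clone 4, against 933 to 1020 CPM in WT. These markers did not move together in clone 2. Col3a1 (32 and 28.2 CPM against 340 to 371 CPM in WT), Col1a1 and Prrx1 were below every WT library. Thy1 (18 and 15.9 CPM against 5.05 to 6.46 CPM in WT), Pdgfrb and Col1a2 were above, and the others overlapped with WT. The summed level of 6 blood markers was 33.2 to 35.3 CPM in clone 2 and 10.2 to 11.8 CPM in clone 4, against 8.42 to 9.41 CPM in WT, nearly all of it Cd68 and Csf1r. Of the defining markers Hbb-bt was at 0 in all 8 libraries, and Ptprc, the pan-leukocyte marker, reached at most 0.253 CPM, Tyrobp 0.203 CPM and Hba-a1 0.125 CPM. In bulk RNA, fewer cells of a type and less RNA per cell cannot be told apart.

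Caprin1 itself (ENSMUSG00000027184.14, chr2:103762945-103797669, GRCm38) checked the labels with a split result. Its transcript stood at 129 and 127 CPM in clone 2 and at 1025 and 1078 CPM in clone 4, against 1166, 1118, 1140 and 1122 CPM in WT. Clone 2 was far below WT by a log2 difference of -3.16 (SE 0.05, FDR 1.94e-39) and clone 4 was just below it by -0.11 (SE 0.04, FDR 0.0408), both by edgeR's test in 3 groups. The pooled difference of -0.95 (SE 0.71, FDR 0.364) was not called. Counts over a whole gene do not show whether a transcript still encodes the protein, so the clone 4 libraries are KO by their label and not by the level of the transcript.

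Pooled over clones, 13599 genes were tested and 2354 were called (17.3%), of which 1394 rose in KO cells (10.3%) and 960 fell (7.06%). The count moved with single libraries, and the cause was not tested. It was 619, 673, 652 and 892 without WT replicate 1, 2, 3 and 4, and 1376 and 1312 without clone 2 replicate 1 and 2. It was 3006 and 3589 without clone 4 replicate 1 and 2. Every KO library lay above every WT library in 2096 genes (15.4%) and below in 2092 genes (15.4%). Under scaling by library totals alone 1016 genes were higher and 1793 lower, and the median log2 difference of all genes moved to -0.11 from a value near 0 under TMM. Of the 102 genes taken up by the rule for named genes and called in the pooled test, 58 kept the call whichever library was left out.

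The largest increases and decreases given here are of genes with a mean of at least 5 CPM that were called in both clones. They were also chosen for no overlap between KO and WT libraries. Genes below 5 CPM, such as Ifi44 (6.35), Cxcl5 (4.01) and Zfp36l3 (-2.96), had differences of like size. Among the genes so chosen Usp18 and Ifit1 had the largest increases. Usp18, the protease that removes the ubiquitin-like ISG15 tag and damps interferon signalling, was at 13.3 and 24.9 CPM in clone 2 and 14.5 and 11.0 CPM in clone 4, against 0.267, 0.253, 0.627 and 0.329 CPM in WT. Ifit1, which binds foreign 5′ RNA ends, was at 6.72 and 6.91 CPM in clone 2 and 13 and 13.7 CPM in clone 4, against 0.401, 0.253, 0.125 and 0.329 CPM in WT. In both genes every KO library was many times any WT library. Both were below the minimum of the filter on low counts (10 counts at median depth, 1.15 CPM) in every WT library. They were thus measured only through the KO libraries, which sets the lack of overlap in advance. The pooled log2 difference was 5.38 for Usp18 (SE 0.40, FDR 0.000812) and 5.11 for Ifit1 (SE 0.42, FDR 0.000998).

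Fgf7, a growth factor made by mesenchyme for epithelia, was at 8.76 and 13.2 CPM in clone 2 and 29.1 and 32.4 CPM in clone 4, against 0.936 to 1.64 CPM in WT (log2 difference 4.08, SE 0.50, FDR 0.00387). Il1rl1, the receptor of interleukin 33, was at 7.08 and 8.84 CPM in clone 2 and 27.2 and 23.3 CPM in clone 4, against 0.936 to 1.76 CPM in WT (3.81, SE 0.55, FDR 0.00617). In both genes the lowest WT library was below the low-count minimum of 1.15 CPM, so they passed the filter only with the KO libraries. Clone 4 was the higher clone in both. The neighbouring chemokine genes Ccl7 and Ccl2, which draw in monocytes, had the same order: Ccl7 was at 13.1 and 13.4 CPM in clone 2 and 44.7 and 38.1 CPM in clone 4 against 1.42 to 2.78 CPM in WT, and Ccl2 was at 14.8 CPM in both clone 2 libraries and 66.0 and 59.3 CPM in clone 4 against 2.85 to 5.21 CPM in WT. Both were called, Ccl7 by 3.60 (SE 0.51, FDR 0.00602) and Ccl2 by 3.26 (SE 0.60, FDR 0.0132), and the call of Ccl2 was lost without WT replicate 2 or 3. Cavin2, a coat protein of caveolae, and Tm4sf1, a membrane protein of endothelial cells, rose by 4.10 (SE 0.82, FDR 0.0176) and 3.29 (SE 0.75, FDR 0.0251), and lost the call without any 1 of the WT libraries. Apbb1ip, an adaptor of integrin signalling, rose by 3.39 (SE 0.61, FDR 0.0126).

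The largest decreases included those of Calcr, Frem2 and Slc40a1. Calcr, the calcitonin receptor, was at 0.72 and 0.711 CPM in clone 2 and 3.97 and 3.75 CPM in clone 4, against 23, 16.6, 22.1 and 15.2 CPM in WT (log2 difference -3.06, SE 0.52, FDR 0.0108). Frem2, a basement membrane protein that anchors epithelia, was at 4.92 and 6.20 CPM in clone 2 and 19 and 16.3 CPM in clone 4, against 54.1 to 58.3 CPM in WT (-2.28, SE 0.41, FDR 0.0123). Slc40a1, the iron exporter ferroportin, was at 5.52 and 4.07 CPM in clone 2 and 13.7 and 13.5 CPM in clone 4, against 39.8 to 47.6 CPM in WT (-2.24, SE 0.37, FDR 0.00993). In these 3 genes clone 2 was the lower clone. That no KO library reached the WT range was a condition of their choice.

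Tfap2c, a transcription factor of trophoblast and germ cells, was near equal in the clones, at 1.92 and 2.95 CPM in clone 2 and 2.47 and 1.76 CPM in clone 4, against 9.72 to 10.6 CPM in WT (-2.15, SE 0.18, FDR 0.000998). Rhox9, a homeobox gene of the X-linked reproductive cluster, was at 2.40 and 2.03 CPM in clone 2 and 1.5 and 1.29 CPM in clone 4, against 7.71 to 9.78 CPM in WT (-2.29, SE 0.21, FDR 0.00144). Clone 4 minus clone 2 was -0.20 for Tfap2c (FDR 0.597) and -0.64 for Rhox9 (FDR 0.122), and neither was called between clones. Rgs5, a regulator of G-protein signalling, fell by 2.16 on the log2 scale. Nnat, Bmp5, St6gal2, Tmem132c, Pdgfb and Fat3 completed the 12, with pooled log2 differences from -2.98 to -1.82, and each lost its call without WT replicate 1 or 3.

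**Figure D1:**
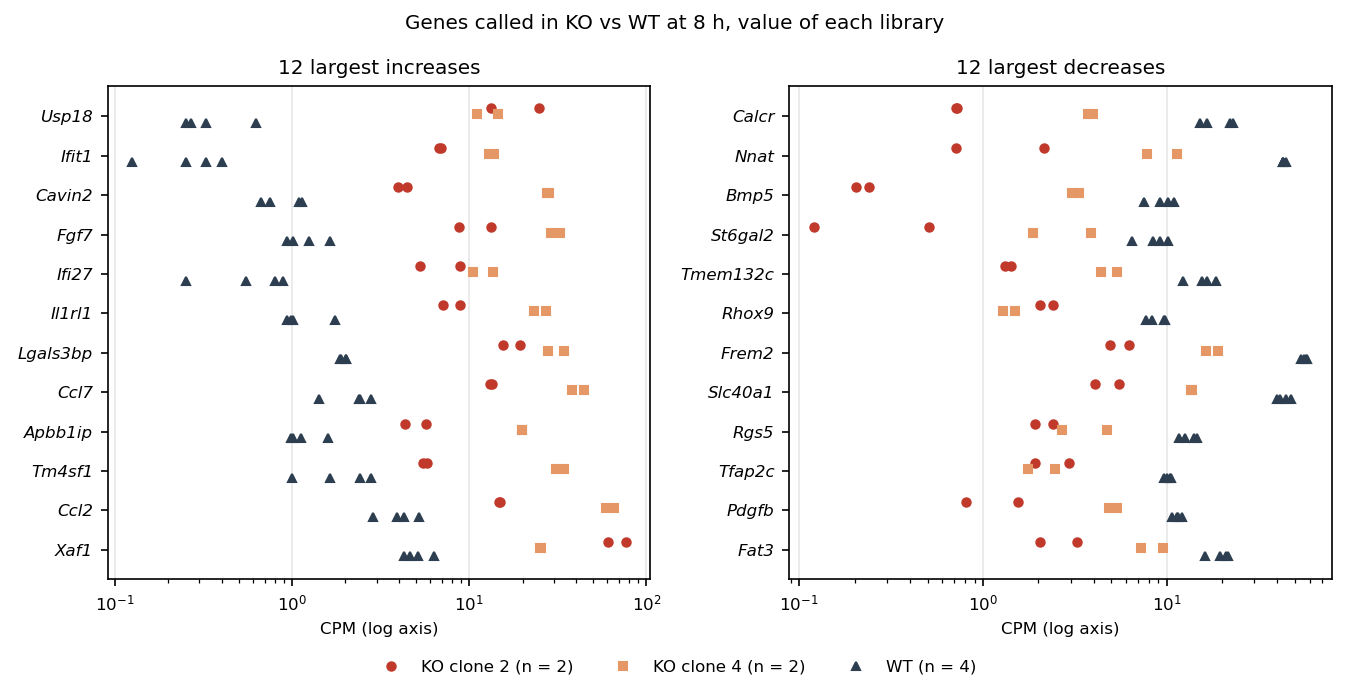
CPM on a log axis of the 12 genes with the largest called increase (left) and the 12 with the largest called decrease (right) at 8 h among genes with a mean of at least 5 CPM, one point per library, for KO clone 2, KO clone 4 and WT. No KO library overlaps the WT range in these genes, which were chosen for that lack of overlap as well as for the size of the difference. Clone 2 and clone 4 stand apart from each other in most of them, as in Cavin2 with 3.96 and 4.47 CPM in clone 2 and 27.5 and 28.1 CPM in clone 4.

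Interferon-stimulated genes rose as a group in both clones. Of 53 listed genes 40 were measured in the pooled test, and 33 rose and none fell (82.5% against 10.3% of all genes tested), with a median log2 difference of 1.82 against 0.01 for all genes tested. Of the 40, 15 passed the filter on low counts only through the KO libraries, and all of these were among the 33, as they had to be high in KO cells to be measured. Of the 25 that reached the minimum of 10 counts at median depth (1.15 CPM) in every WT library, 18 rose (72%, against 9.97% of all genes so chosen), with a median of 1.20. The risen members ran from 0.67 for Adar, an RNA-editing enzyme, to 6.35 for Ifi44. The 7 members that were not called ran from -0.41 for Irf1 to 1.12 for Ifit2. Against WT in the fit with 3 groups, in which 47 members were measured, 40 were higher in clone 2 (background 31.7%) and 43 in clone 4 (background 20.4%). In that fit the filter asked for the minimum in only 2 libraries, so members low in WT could enter through 1 clone. These counts are thus partly set by the filter, and were not taken for members that reach the minimum in WT. Gbp2, Irf1 and Ifitm2 were lower in clone 2 (background 31.8%) and Ifitm1 was lower in clone 4 (background 17.1%). Leaving out 1 library gave 24 to 34 higher members, with 24 without WT replicate 1, 2 or 3.

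Bst2, the tetherin that holds virus particles at the cell surface, had the smallest p of the group: it was at 42.1 and 58.6 CPM in clone 2 and 40.2 and 31.5 CPM in clone 4, against 6.42, 5.81, 5.77 and 4.6 CPM in WT (2.93, SE 0.21, FDR 0.000792). Xaf1, an antagonist of the apoptosis inhibitor XIAP, was at 60.9 and 76.5 CPM in clone 2 and 25.2 and 25.6 CPM in clone 4, against 4.28 to 6.32 CPM in WT (3.20, SE 0.42, FDR 0.00488). Ifi27 was at 5.28 and 8.84 CPM in clone 2 and 13.6 and 10.4 CPM in clone 4, against 0.251 to 0.884 CPM in WT (3.92, SE 0.41, FDR 0.002). It was below the low-count minimum of 1.15 CPM in every WT library and was measured only through the KO libraries. That KO and WT did not overlap in Ifi27 was thus set in advance. Lgals3bp, a secreted glycoprotein, rose by 3.64 (SE 0.28, FDR 0.000998). Clone 4 minus clone 2 was called in 37 of 47 members, 19 of them higher in clone 4 and 18 lower (background 30% and 28.5%), so that neither clone was uniformly the higher one.

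The promoters of the risen interferon-stimulated genes are shown because they carry the letters by which interferon-activated factors are known to bind, 2 copies of GAAA with any 2 bases between them on either strand, the core of the interferon-stimulated response element. In RefSeq windows of 250 bases before to 50 bases after each start (GRCm38.p6), 26 of the 33 risen genes had an entry, and 13 of the 26 (50%) held at least 1 match. Of the 7 measured members that were not called, all had an entry and 3 held a match. Of 10339 tested genes with an entry, 350 (3.39%) held one. Capitals mark the matches, which can overlap, in 3 risen genes.
Ifit1, chr19:34640639-34640938, plus strand: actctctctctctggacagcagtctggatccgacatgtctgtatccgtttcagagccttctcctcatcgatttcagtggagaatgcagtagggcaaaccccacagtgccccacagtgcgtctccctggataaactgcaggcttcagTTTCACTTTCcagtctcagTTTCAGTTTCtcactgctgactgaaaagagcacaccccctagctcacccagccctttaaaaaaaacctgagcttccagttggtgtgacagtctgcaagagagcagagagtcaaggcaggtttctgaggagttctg
Isg15, chr4:156200769-156201068, minus strand: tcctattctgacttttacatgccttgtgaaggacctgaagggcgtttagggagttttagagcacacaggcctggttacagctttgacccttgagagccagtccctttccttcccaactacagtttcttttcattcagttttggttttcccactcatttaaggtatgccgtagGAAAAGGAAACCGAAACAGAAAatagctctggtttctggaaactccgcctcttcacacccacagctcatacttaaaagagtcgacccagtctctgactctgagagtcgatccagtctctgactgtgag
Oas1a, chr5:120907476-120907775, minus strand: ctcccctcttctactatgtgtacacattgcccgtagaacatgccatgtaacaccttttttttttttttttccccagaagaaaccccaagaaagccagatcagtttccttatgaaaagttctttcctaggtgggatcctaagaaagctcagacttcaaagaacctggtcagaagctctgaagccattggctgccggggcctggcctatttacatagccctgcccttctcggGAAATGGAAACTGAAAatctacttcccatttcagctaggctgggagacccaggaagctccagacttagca

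The 3 genes, picked for display after their values were seen, had low levels. All 3 were below the low-count minimum of 1.15 CPM in every WT library and were measured only through the KO libraries. That KO and WT did not overlap in them was thus set in advance. Isg15, the ubiquitin-like modifier, was at 4.32 and 4.07 CPM in clone 2 and 7.19 and 6.21 CPM in clone 4, against 0.401, 0.253, 0.251 and 0.657 CPM in WT (3.73, SE 0.35, FDR 0.0015). Oas1a, an enzyme that senses double-stranded RNA, was at 7.08 and 9.25 CPM in clone 2 and 2.79 and 2.46 CPM in clone 4, against 0.134, 0.505, 0.501 and 0 CPM in WT (4.21, SE 0.75, FDR 0.012). Oas1a has near-identical neighbours among which reads can be split. A match is a description of the letters and not a measured binding site.

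**Figure D2:**
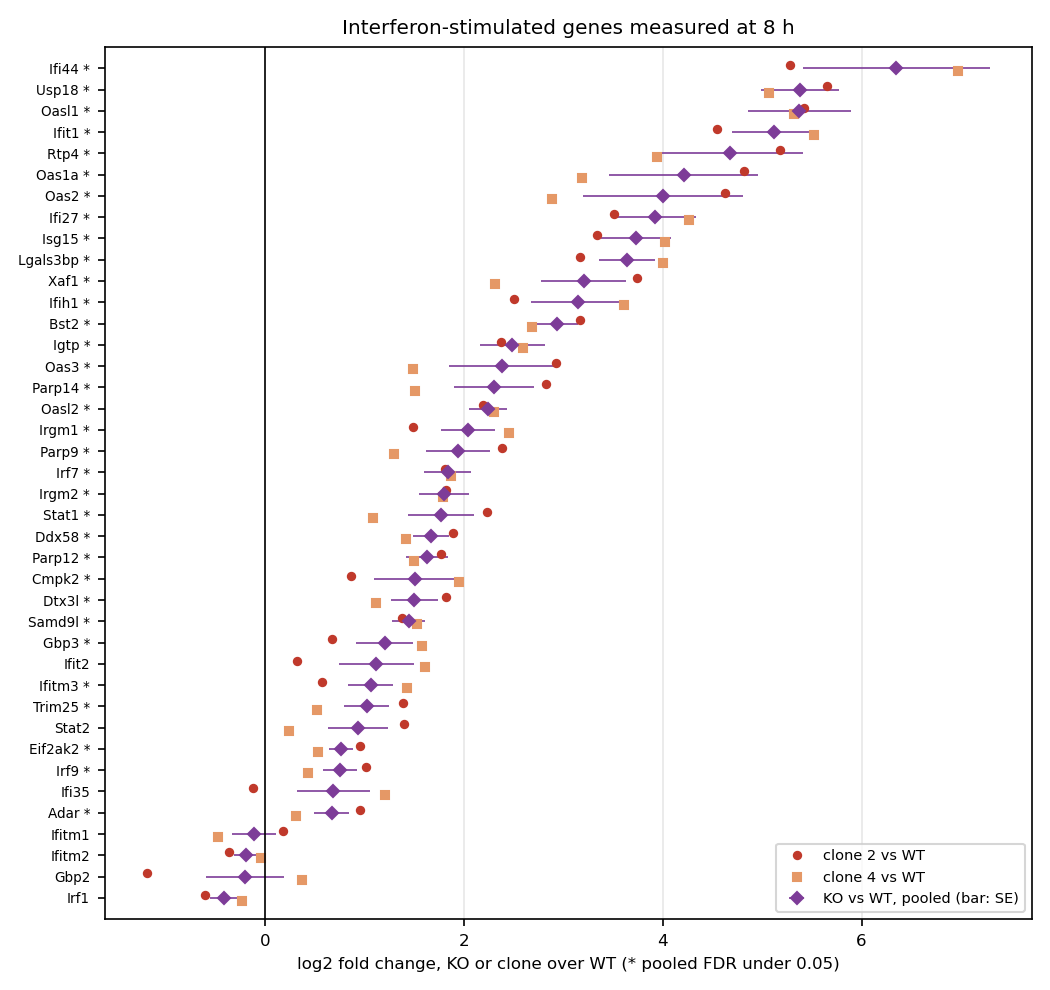
Log2 fold change over WT of the 40 measured interferon-stimulated genes at 8 h, in order of the pooled value (diamonds, with its SE as the bar), beside clone 2 (circles) and clone 4 (squares). The 33 starred genes have a pooled FDR under 0.05, from Adar at 0.67 to Ifi44 at 6.35, and Gbp2, Irf1 and Ifitm2 lie below 0 in clone 2.

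Antigen presentation genes load peptides on MHC class I molecules for display to T cells. Of 19 measured members 7 were higher (36.8% against 10.3% of all genes tested) and none was lower. Of 16 members that reached the low-count minimum in every WT library, 6 were higher (37.5%, against 9.97% of all genes so chosen). B2m, the invariant light chain, was at 191 and 184 CPM in clone 2 and 199 and 194 CPM in clone 4, against 93.7, 97.2, 85.9 and 97.6 CPM in WT (1.04, SE 0.06, FDR 0.000323). H2-D1, a class I heavy chain, was at 135 and 144 CPM in clone 2 and 117 and 105 CPM in clone 4, against 49.8 to 56.5 CPM in WT (1.22, SE 0.10, FDR 0.00104), with the caution that class I genes resemble each other. The other risen members were H2-T23, Calr, H2-K1, Pdia3 and Tapbp. Without WT replicate 2 or 3 the count was 3.

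Chemokine and cytokine response genes rose in 12 of 19 measured members (63.2% against 10.3%), with a median log2 difference of 1.02, and Cxcl12 alone fell. Of 17 members that reached the low-count minimum in every WT library 10 rose. Cxcl16, a membrane-bound chemokine, was at 32.4 and 29.1 CPM in clone 2 and 26.2 and 23.9 CPM in clone 4, against 10.7 to 12.5 CPM in WT (1.29, SE 0.12, FDR 0.00124). Il33, the alarmin that Il1rl1 receives, was at 44.6 and 42.4 CPM in clone 2 and 36.3 and 31.9 CPM in clone 4, against 15.9 to 20.8 CPM in WT (1.02, SE 0.13, FDR 0.00443). Cxcl12, the stromal ligand of CXCR4, was at 38.9 and 38.3 CPM in clone 2 and 38.3 and 36.2 CPM in clone 4, against 43.4 to 52.4 CPM in WT (-0.33, SE 0.08, FDR 0.0322), a call lost without any 1 of the WT or clone 2 libraries. The count of higher members was 7 without WT replicate 3.

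In the integrated stress response phosphorylated eIF2α favours translation of ATF4 and its targets. Of 29 measured members of this list 17 rose (58.6% against 10.3%) with a median log2 difference of 0.43, and Ddit4 alone fell. Atf5, a transcription factor of the pathway, was at 65.2 and 59.5 CPM in clone 2 and 68.2 and 60.7 CPM in clone 4, against 35.6 to 37.8 CPM in WT (0.79, SE 0.07, FDR 0.000998). Nupr1, a stress-induced chromatin protein, was at 4.80 and 4.47 CPM in clone 2 and 4.29 and 4.22 CPM in clone 4, against 0.936, 0.884, 0.627 and 1.10 CPM in WT (2.30, SE 0.20, FDR 0.00104). Nupr1 was below the low-count minimum of 1.15 CPM in every WT library, so it was measured only through the KO libraries. Of 27 members that reached the minimum in every WT library, 16 rose (59.3%). The clones were close to each other in Atf5 and Nupr1, and clone 4 minus clone 2 was not called (0.06, FDR 0.497 and -0.11, FDR 0.714).

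Atf4 itself differed by only 0.20 (FDR 0.0375), the smallest of the 17. Ddit4, an inhibitor of mTORC1, went the other way: it was at 25.3 and 30.3 CPM in clone 2 and 40.3 and 39.6 CPM in clone 4, against 91.2, 77.0, 102 and 82.7 CPM in WT (-1.38, SE 0.16, FDR 0.00332). Leaving out WT replicate 1, 2 or 3 gave 9 higher members.

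Regulators and secreted markers of extraembryonic endoderm rose in 13 of 25 measured members (52% against 10.3%) and fell in none. Genes of the parietal endoderm basement membrane rose in 15 of 25 (60%), with Col18a1, Krt18 and Krt19 lower (12% against 7.06%). Gata6, a founding transcription factor of the lineage, was at 479 and 476 CPM in clone 2 and 220 and 211 CPM in clone 4, against 130, 139, 142 and 137 CPM in WT (1.33, SE 0.29, FDR 0.0227). Thbd, the thrombomodulin of parietal endoderm, was at 127 CPM in both clone 2 libraries and 53.9 and 46.7 CPM in clone 4, against 12.5 to 13.9 CPM in WT (2.73, SE 0.37, FDR 0.00496). Nid1, a linker of basement membranes, was at 1616 and 1602 CPM in clone 2 and 984 and 968 CPM in clone 4, against 515 to 612 CPM in WT (1.24, SE 0.19, FDR 0.00753). In all 3 genes the order was clone 2, then clone 4, then WT, with no overlap.

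Lrp2, the endocytic receptor megalin, was at 1163 and 1560 CPM in clone 2 and 1516 and 1526 CPM in clone 4, against 672 to 970 CPM in WT (0.86, SE 0.14, FDR 0.00786). Gata4 (1.33, FDR 0.0533) and Foxa2 (0.99, FDR 0.0543), fixed markers of the same lineage, were not called when pooled although both were called in each clone. Col18a1, a collagen of basement membranes, was at 238 and 262 CPM in clone 2 and 440 and 482 CPM in clone 4, against 688 to 742 CPM in WT (-1.01, SE 0.23, FDR 0.0248). Against WT, 24 of 26 endoderm members were higher in clone 2 and 17 of 26 in clone 4, with medians of 1.65 and 0.33, and clone 4 was below clone 2 in 22 of 26. For the basement membrane 19 of 25 were higher in each clone, with medians of 1.56 in clone 2 and 0.39 in clone 4, and clone 4 was below clone 2 in 19 of 25. Backgrounds were 31.7% higher in clone 2, 20.4% higher in clone 4 and 28.5% for clone 4 below clone 2. The pooled counts depended on single libraries, with 1 endoderm member higher without any 1 of the WT libraries and 2 basement membrane members higher without WT replicate 1, 2 or 3 or clone 2 replicate 2. Gata6 lost its call without any 1 of the WT libraries, Col18a1 without these or clone 2 replicate 2 and Krt19 without WT replicate 1 or 3, while Thbd, Nid1 and Lrp2 kept theirs.

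Imprinted genes are expressed from 1 parental allele under methylation marks that are often unstable in cultured ESCs. Of 36 measured members 14 were lower (38.9% against 7.06% of all genes tested) and none was higher, with a median log2 difference of -0.81. Igf2, a fetal growth factor (chr7:142650768-142666816, GRCm38), was at 35.9 and 36.6 CPM in clone 2 and 34.5 and 39.6 CPM in clone 4, against 80.4, 84.2, 78.0 and 87.7 CPM in WT (-1.17, SE 0.07, FDR 0.000323). Its neighbour H19, a non-coding RNA of the opposite allele (chr7:142575530-142578146), was at 95.8 and 82.5 CPM in clone 2 and 63.6 and 58.3 CPM in clone 4, against 228 to 250 CPM in WT (-1.68, SE 0.15, FDR 0.00143). Both neighbours were thus lower in KO cells, and the clones did not differ in Igf2 by the test (0.04, FDR 0.739). Cdkn1c, a brake on the cell cycle, was at 21.0 and 23.2 CPM in clone 2 and 27.9 and 32.7 CPM in clone 4, against 63.5 to 73.3 CPM in WT (-1.39, SE 0.14, FDR 0.00165). Nnat, a membrane protein of developing brain, was at 2.16 and 0.711 CPM in clone 2 and 7.84 and 11.4 CPM in clone 4, against 42.7 to 44.5 CPM in WT (-2.98, SE 0.63, FDR 0.0204). Of 38 members in the fit with 3 groups, 33 were lower in clone 2 (background 31.8%) and 27 in clone 4 (background 17.1%). Igf2r was higher in clone 2 and Dio3 in clone 4. Leaving out WT replicate 1 brought the pooled count to 4, and leaving out any other WT library brought it to 5.

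Pluripotency genes were higher in 9 of 32 measured members (28.1% against 10.3%), and Lin28a was lower. Spp1, the secreted phosphoprotein osteopontin, was at 139 and 146 CPM in clone 2 and 190 and 195 CPM in clone 4, against 69.8 to 82.4 CPM in WT (1.17, SE 0.13, FDR 0.0022). Tbx3, a T-box factor of naive ESCs that also acts in endoderm, was at 309 and 330 CPM in clone 2 and 267 and 274 CPM in clone 4, against 206 to 236 CPM in WT (0.41, SE 0.08, FDR 0.0168). The core factors were not called in the pooled test: log2 differences were -0.14 for Nanog (FDR 0.312), -0.32 for Sox2 (FDR 0.121) and 0.47 for Pou5f1 (FDR 0.0794). In clone 2 Pou5f1 was higher by 0.72 and Sox2 was lower by a log2 difference of -0.55, both called, and in clone 4 neither was called. Lin28a, which blocks maturation of let-7 microRNAs, was at 117 and 118 CPM in clone 2 and 140 and 144 CPM in clone 4, against 163 to 175 CPM in WT (-0.38, SE 0.08, FDR 0.0209). Lin28a lost its call without any 1 of the WT libraries or clone 2 replicate 2 and Tbx3 without WT replicate 1, 3 or 4, and 1 pluripotency member was higher without WT replicate 1, 3 or 4. Genes of the 2-cell-like state were higher in 5 of 16 measured members (31.2% against 10.3%), namely Tmem92, Arg2, Usp17lc, Zscan4f and Usp17la. The Usp17l and Zscan4 copies are near identical, which makes their counts uncertain. Tmem92 was at 9.72 and 10.6 CPM in clone 2 and 8.80 and 7.51 CPM in clone 4, against 2.81 to 4.42 CPM in WT (1.39, SE 0.20, FDR 0.00547). Without any 1 of the WT libraries 1 member of this list was higher, and Arg2 lost its call.

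Of the enzymes that limit the signal, Dhrs3, which reduces retinal, and Cyp26c1 and Cyp26a1, which oxidise retinoic acid, rose by 1.92 (SE 0.24, FDR 0.00359), 1.54 (SE 0.35, FDR 0.024) and 1.49. Their relative Cyp26b1 was not called (-0.34, FDR 0.665), being lower in clone 2 and higher in clone 4. Of the enzymes that make retinoic acid or its precursor, Aldh1a2, a retinal oxidase, and Rdh10 fell, while Aldh1a1 (-0.93, FDR 0.093), Aldh1a3 (-0.84, FDR 0.306) and Rdh11 (0.26, FDR 0.0502) were not called. Aldh1a2 was at 3.84 and 2.74 CPM in clone 2 and 4.08 and 3.63 CPM in clone 4, against 6.24 to 8.15 CPM in WT (-1.05, SE 0.17, FDR 0.00843). Rdh10, the retinol oxidase, was at 36.0 and 33.3 CPM in clone 2 and 64.3 and 64.4 CPM in clone 4, against 92.2 to 101 CPM in WT (-0.97, SE 0.23, FDR 0.0278). Nr2f2 and Rara were the other lower members, so that 3 of 31 were higher (9.68%) and 4 lower (12.9%), which is near the background. In clone 2, 8 of 31 were higher and 19 lower (backgrounds 31.7% and 31.8%), and in clone 4, 9 and 13 (20.4% and 17.1%). Clone 4 minus clone 2 was called in 28 (background 58.4%). Cyp26c1 and Rdh10 lost their calls without any 1 of the WT libraries, and also without clone 2 replicate 2 for Cyp26c1 and clone 2 replicate 1 for Rdh10, while Dhrs3 and Aldh1a2 kept theirs.

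Other lineage lists were near the background in the pooled test, with neuroectoderm at 3 higher and 1 lower of 28, primitive streak and mesoderm at 2 higher of 16 and trophoblast at 2 higher and 2 lower of 15. Ncam1, a neural adhesion molecule, was at 102 and 98.1 CPM in clone 2 and 116 and 106 CPM in clone 4, against 75.6 to 81.2 CPM in WT (0.42, SE 0.06, FDR 0.00649). Tead4, a factor of the trophoblast programme, was at 78.4 and 71.8 CPM in clone 2 and 57.2 and 57.7 CPM in clone 4, against 33.8 to 40.9 CPM in WT (0.82, SE 0.13, FDR 0.00668). Plac1, a placental gene, was at 4.20 and 4.27 CPM in clone 2 and 5.37 and 3.87 CPM in clone 4, against 7.07 to 9.31 CPM in WT (-0.88, SE 0.16, FDR 0.012). Foxf1, a mesoderm factor, rose by 0.94 (SE 0.18, FDR 0.0145) and lost the call without WT replicate 1. Eomes, on the mesoderm and trophoblast lists, and Nkx6-1, a neural tube factor, rose by 0.90 (FDR 0.0481) and 0.82 (FDR 0.0437), and Eomes lost the call without any 1 of the WT or clone 2 libraries and Nkx6-1 without any 1 of the 8. The median log2 difference of these lists in clone 2 was -1.21 for neuroectoderm, -1.54 for streak and mesoderm and -1.28 for trophoblast. In clone 4 it was -0.03, -0.23 and -0.34. Members went both ways in clone 2, with 6 higher and 19 lower of 29, 4 and 11 of 18, and 3 and 10 of 15 (backgrounds 31.7% and 31.8%). Summed mesoderm markers were at 22.6 to 22.8 CPM in clone 2, against 18.8 to 23.7 CPM in WT. Sums were lower in clone 2 for neuroectoderm (22.3 to 24.6 against 54.4 to 59.9 CPM) and trophoblast (12.4 to 16.9 against 50.7 to 58.2 CPM).

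Few RNA-decay factors were called in the pooled test. No member of the decapping and 5′ decay list (0 of 20) or of the exosome and 3′ decay list (0 of 19) was called in the pooled test by edgeR. The members with the smallest p were Lsm14b at -0.22 (FDR 0.0507), Patl1 at 0.18 (FDR 0.0742), Ttc37 at 0.21 (FDR 0.0642) and Exosc9 at -0.27 (FDR 0.0738). Dis3, a catalytic subunit of the exosome named after its values were seen, was at 465 and 492 CPM in clone 2 and 114 and 115 CPM in clone 4, against 144 to 158 CPM in WT, and was called higher in clone 2 (1.67) and lower in clone 4 (-0.39). Under DESeq2 1 decapping member was lower and 1 exosome member higher, and under library totals 8 and 2 were lower. Of deadenylation factors, which shorten poly(A) tails, 3 of 20 were lower (15% against 7.06%), namely Tnrc6b, Cnot7 and Cnot11. Tnrc6b, a scaffold of microRNA silencing, was at 102 and 118 CPM in clone 2 and 110 and 119 CPM in clone 4, against 160 to 169 CPM in WT (-0.54, SE 0.06, FDR 0.00284). Cnot7, a deadenylase, fell by 0.32 on the log2 scale (SE 0.07, FDR 0.0249), a call lost without any 1 of the WT or clone 2 libraries. Of the nonsense-mediated decay list 1 of 17 was lower, Magohb, at 0.600 and 0.305 CPM in clone 2 and 1.40 and 1.99 CPM in clone 4, against 2.81 to 3.79 CPM in WT, a call lost without 7 of the 8 libraries in turn. The split of calls in clone 2 depended on scaling. For decapping, exosome and nonsense-mediated decay members it was 5 higher and 5 lower, 6 higher and 1 lower, and 5 higher and 4 lower under TMM against 2 and 10, 3 and 6, and 2 and 8 under library totals.

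The regulators of AU-rich elements, sequences in the 3′ ends of short-lived mRNAs, differed within 1 protein family. Zfp36l2 was at 86.1 and 95.4 CPM in clone 2 and 63.5 and 65.2 CPM in clone 4, against 35.1 to 43.6 CPM in WT (1.01, SE 0.15, FDR 0.00629). Its relative Zfp36l1 was at 104 and 110 CPM in clone 2 and 109 and 116 CPM in clone 4, against 163, 163, 163 and 153 CPM in WT (-0.55, SE 0.05, FDR 0.0015). The rodent relative Zfp36l3 was at 0.480 and 0.406 CPM in clone 2 and 1.29 and 1.64 CPM in clone 4, against 6.79 to 9.03 CPM in WT (-2.96, SE 0.38, FDR 0.00412). All of these bind AU-rich elements and hasten decay in mammalian cells. In all, 3 of 15 members were higher (20% against 10.3%), with Zc3h12a and Zfp36 beside Zfp36l2, and 2 lower (13.3% against 7.06%). Zfp36 rose by 0.50 (SE 0.13, FDR 0.0339) and lost the call without WT replicate 1, 2 or 3 or replicate 1 of either clone, and without WT replicate 1, 2 or 3 or clone 4 replicate 1 the count of higher members was 1.

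Partners of CAPRIN1 and stress granule proteins were higher in 2 of 35 (5.71%) and lower in 6 (17.1% against 7.06%). The direct partners G3bp1 (0.01, FDR 0.94) and G3bp2 (-0.10, FDR 0.226) were not called. The changes were small: Pabpc4, a poly(A)-binding protein, rose by 0.42 (SE 0.08, FDR 0.0164) and Atxn2l by 0.30 (SE 0.05, FDR 0.012), and Pum2, a repressor of target mRNAs, and Fxr1, a relative of FMRP, fell by 0.29 (SE 0.07, FDR 0.0301) and 0.31 (SE 0.08, FDR 0.0386) on the log2 scale. Pabpc4 lost its call without WT replicate 1, 3 or 4, Atxn2l without WT replicate 1 or 3, Pum2 without any 1 of the WT libraries or clone 2 replicate 2, and Fxr1 without any 1 of the WT or clone 2 libraries. Pum2 was at 255 and 280 CPM in clone 2 and 310 and 305 CPM in clone 4, against 338 to 359 CPM in WT. Without any 1 of the WT libraries or clone 2 replicate 2, edgeR called 0 members lower, against 8 with DESeq2 on all libraries.

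The authors' RNA immunoprecipitation lists name genes in a comparison of CAPRIN1 precipitates and give no value or direction. Of 1294 measured genes on both lists, 240 were higher (18.5% against 10.3%) and 105 lower (8.11% against 7.06%), with a median log2 difference of 0.09 against 0.01 for all genes tested. The counts were 61 higher and 24 lower without WT replicate 1, and 187 higher and 182 lower under library totals. Besides B2m, the members with the smallest p were Myo1d, an unconventional myosin, at 71.7 and 63.5 CPM in clone 2 and 70.2 and 67.2 CPM in clone 4 against 33.5 to 39.1 CPM in WT, and Cryab, a small heat shock protein, at 120 and 106 CPM in clone 2 and 109 and 119 CPM in clone 4 against 46.9 to 61.1 CPM in WT. Mical2, an actin oxidase, was at 92.2 and 90.6 CPM in clone 2 and 118 and 120 CPM in clone 4, against 31.8 to 40.5 CPM in WT. Log2 differences were 0.90, 1.08 and 1.55, and FDRs 0.000998 each by edgeR's test.

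Among lower genes on both lists, the chromatin remodelling proteins Arid2 and Chd7 stood at 141 to 149 and 100 to 106 CPM in the 4 KO libraries, against 191 to 210 and 134 to 141 CPM in WT. Fignl2, an AAA-type ATPase, and Gprasp1, a receptor-sorting protein, stood at 65.4 to 68.5 and 54.1 to 66.2 CPM in KO libraries, against 97.0 to 104 and 98.2 to 105 CPM in WT. These 4 genes fell by 0.43 to 0.76 on the log2 scale with FDRs of 0.000998 to 0.00224, and kept the call whichever library was left out.

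Short-lived and immediate early genes were near the background in the pooled test, with 6 of 40 members higher (15% against 10.3%) and Id3 alone lower (2.5% against 7.06%). Of 38 members that reached the low-count minimum in every WT library, 5 were higher (13.2%, against 9.97% of all genes so chosen). In clone 2, 10 of 42 were higher and 22 lower (backgrounds 31.7% and 31.8%), and in clone 4, 19 and 6 (20.4% and 17.1%). Clone 4 minus clone 2 was called in 35 (background 58.4%). Mycn, a growth-promoting transcription factor, was at 101 and 98.2 CPM in clone 2 and 86.3 and 83.6 CPM in clone 4, against 59.1 to 67.4 CPM in WT (0.57, SE 0.08, FDR 0.0054). Junb, an AP-1 subunit, rose by 0.52 (SE 0.11, FDR 0.0205). Id3, an inhibitor of differentiation factors induced by BMP, was at 65.3 and 59.9 CPM in clone 2 and 116 and 96.2 CPM in clone 4, against 165 to 179 CPM in WT (-1.03, SE 0.20, FDR 0.0163). Junb and Id3 lost their calls without WT replicate 1, 2 or 3, and 1 member was higher without WT replicate 1 or 2. Only genes still detectable at 8 h enter these counts.

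Lipid synthesis genes were higher in 9 of 31 (29% against 10.3%) and lower in none. Scd1, the fatty acid desaturase, was at 181 and 172 CPM in clone 2 and 126 CPM in both clone 4 libraries, against 64.2 to 77.8 CPM in WT (1.10, SE 0.14, FDR 0.00432). Elovl6, a fatty acid elongase, rose by 0.41 (SE 0.07, FDR 0.00926). Without WT replicate 2 or 3 the count was 2. The Wnt and FGF signalling list was near the background in the pooled test, with 4 of 31 higher (12.9% against 10.3%), Fgf7, Fgf3, Fgf10 and Wnt4, and 2 lower (6.45% against 7.06%), the Wnt antagonists Rnf43 and Notum. Of 29 members that reached the low-count minimum in every WT library, 3 were higher (10.3%, against 9.97% of all genes so chosen). In clone 2, 8 of 31 were higher and 19 lower (backgrounds 31.7% and 31.8%), and in clone 4, 10 and 11 (20.4% and 17.1%). Clone 4 minus clone 2 was called in 24 (background 58.4%). Wnt4 was at 25.0 and 19.9 CPM in clone 2 and 26.9 and 23.6 CPM in clone 4, against 13.7 to 16.5 CPM in WT (0.69, SE 0.12, FDR 0.0102). Rnf43, a ligase that removes Frizzled receptors, was at 2.88 and 2.34 CPM in clone 2 and 3.22 and 3.52 CPM in clone 4, against 5.39 to 7.62 CPM in WT (-1.05, SE 0.19, FDR 0.012), and Notum, which lost its call without any 1 of the WT or clone 2 libraries, fell by 0.76 on the log2 scale.

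Hypoxia and glycolysis genes (4 higher and 3 lower of 32), p53 targets (2 and 2 of 30), cell cycle genes (0 and 1 of 38), cytosolic ribosomal protein genes (6 and 1 of 84) and mitochondrially encoded genes (0 and 0 of 7) were near or below the background in the pooled test. In clone 2, 16 of 33 hypoxia and glycolysis genes were higher and 5 lower, and in clone 4, 8 and 17. For 30 p53 targets the counts were 5 and 22 in clone 2 and 6 and 7 in clone 4. For 38 cell cycle genes they were 15 and 8 in clone 2 and 5 and 14 in clone 4. Clone 4 minus clone 2 was called in 28, 24 and 31 members of these 3 lists (background 58.4%). P4ha1, a collagen hydroxylase, was at 673 and 662 CPM in clone 2 and 299 and 273 CPM in clone 4, against 187 to 204 CPM in WT, and Vegfa at 140 and 143 CPM in clone 2 and 84.6 and 89.8 CPM in clone 4, against 63.2 to 71.5 CPM in WT. Both rose, by 1.28 and 0.76 (FDR 0.0301 each), and lost the call without any 1 of the WT or clone 2 libraries. Kdm3a, a histone demethylase, and Bnip3l, a mitophagy receptor, fell by 0.39 (FDR 0.0268) and 0.32 (FDR 0.0316) on the log2 scale; Kdm3a lost the call without WT replicate 1, 3 or 4 and Bnip3l without any 1 of the WT libraries or replicate 1 of either clone. Ccng2, a cyclin of quiescent cells, fell by 0.70 on the log2 scale (SE 0.10, FDR 0.0056), and Bbc3, the apoptosis inducer PUMA, by 0.98 (SE 0.25, FDR 0.0344), while Plk3 and Pmaip1 rose by 0.62 (FDR 0.0166) and 0.40 (FDR 0.0369). Of these only Ccng2 kept its call whichever library was left out. In clone 2, 63 of 84 ribosomal protein genes were higher and 1 lower (backgrounds 31.7% and 31.8%). Clone 4 had 9 higher and 12 lower (backgrounds 20.4% and 17.1%). Under library totals these became 39 and 10 in clone 2 and 3 and 29 in clone 4, and reads of these genes can be split with pseudogenes. The 7 mitochondrial genes measured had pooled log2 differences of 0.33 to 0.58, none called by edgeR, while DESeq2 called 2 higher.

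**Figure D3:**
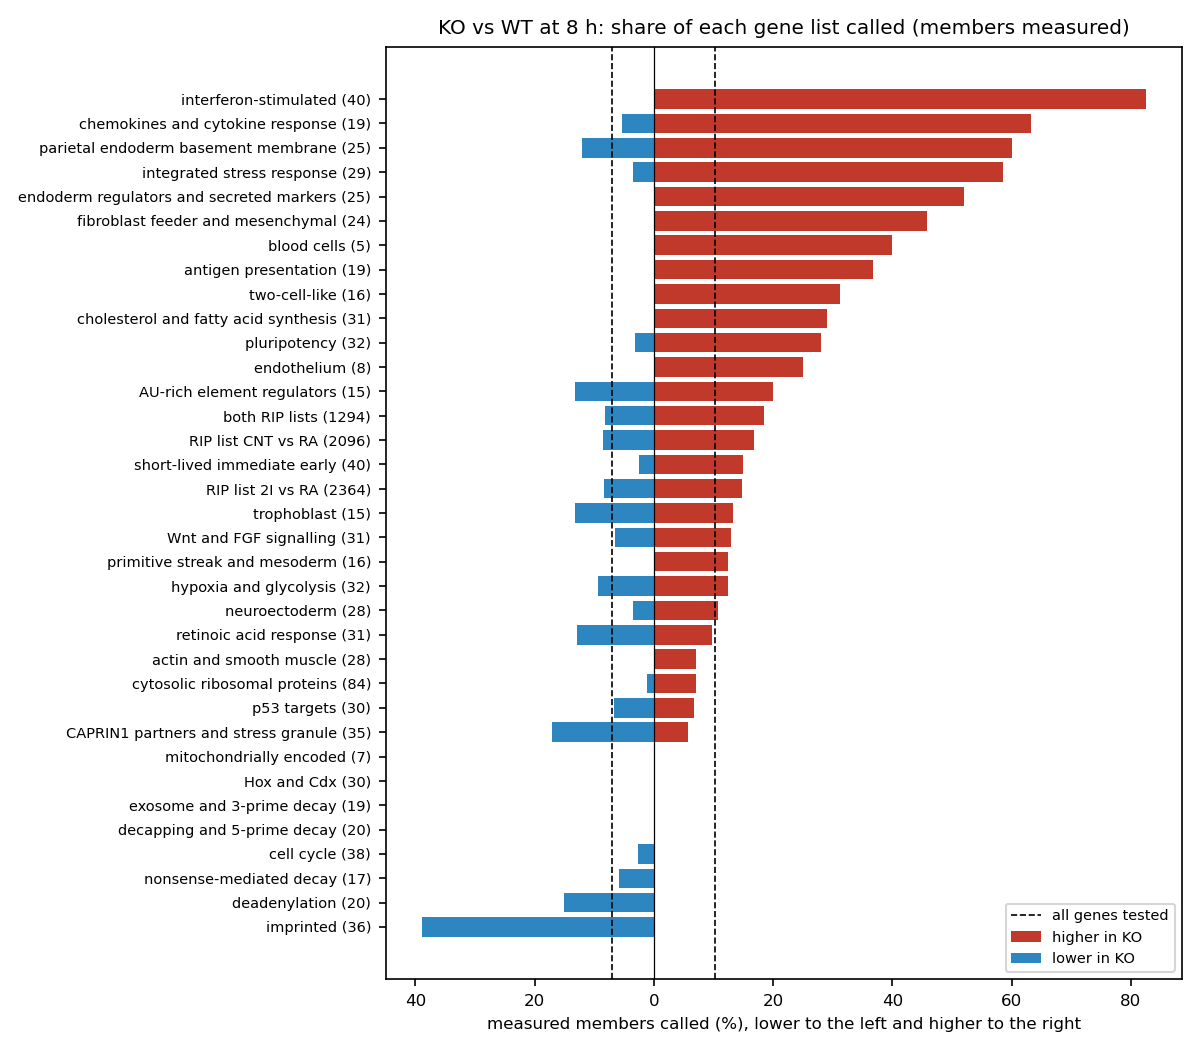
Share of the measured members of each gene list called higher (right) or lower (left) in KO over WT at 8 h in the pooled test, with the number measured in brackets and dashed lines at the shares of all genes tested, 10.3% and 7.06%. Interferon-stimulated genes reach 82.5% higher and imprinted genes 38.9% lower, and the decapping, exosome, Hox and mitochondrial lists have no called member.

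Clone by clone, 14387 genes were tested in 3 groups. Clone 2 had 4563 higher (31.7%) and 4581 lower genes (31.8%), and clone 4 had 2938 higher (20.4%) and 2457 lower genes (17.1%), both against the same WT libraries. Clone 4 minus clone 2 was called in 8409 genes (58.4%). Splits moved under library totals, to 3277 higher and 6036 lower in clone 2 and 2306 and 3598 in clone 4. In the pooled test the spread between clones counts as part of the error, beside the spread within each clone and within WT. That test left out most genes called in 1 clone or the other. Its 4 KO libraries entered as separate replicates although they came from only 2 clones. Its p-values thus do not measure the spread over clones alone.

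Besides the endoderm and basement membrane lists, and several lists near the background in the pooled test, actin and smooth muscle, Hox and fibroblast genes differed between the clones. Of 28 actin and smooth muscle genes, 21 were lower and 2 higher in clone 2, and 23 were higher and 1 lower in clone 4. Backgrounds were 31.8% lower and 31.7% higher in clone 2, and 20.4% higher and 17.1% lower in clone 4. Clone 4 was above clone 2 in 27 of 28 (background 30%), by up to 5.21 on the log2 scale in Actc1, a cardiac actin. Gsn, a filament-severing protein, and Mical2 were the exceptions that rose in both: Gsn was at 332 and 302 CPM in clone 2 and 277 and 260 CPM in clone 4, against 106 to 118 CPM in WT (1.38, SE 0.08, FDR 0.000323). Of 30 Hox and Cdx genes, the patterning genes of the body axis, none was called in the pooled test by edgeR, and 24 were lower in clone 2 while 8 were higher and none lower in clone 4. Clone 4 was above clone 2 in 23 of 30, by up to 2.88 in Hoxa9. Under DESeq2 1 Hox gene was higher when pooled and under library totals 1 was lower. The Hox genes with the smallest pooled p were Hoxd13 at 0.70 (FDR 0.0623) and Hoxa2 at -1.11 (FDR 0.0638), whose KO and WT libraries overlapped.

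Of 24 fibroblast and mesenchymal genes 11 rose in the pooled test (45.8% against 10.3%). Of 23 that reached the low-count minimum in every WT library, 10 rose (43.5%, against 9.97% of all genes so chosen). Timp3, an inhibitor of metalloproteases, was the same in both clones, at 293 and 287 CPM in clone 2 and 294 and 313 CPM in clone 4, against 151 to 165 CPM in WT (0.88, SE 0.05, FDR 0.000323). Col6a2, a microfibril collagen, was at 17.9 and 14.3 CPM in clone 2 and 19.6 and 14.4 CPM in clone 4, against 8.08 to 9.40 CPM in WT (0.90, SE 0.14, FDR 0.0065). The rest of the list differed by clone, since 22 of 25 members were higher and Col3a1 alone lower in clone 4, against 13 higher and 8 lower in clone 2. Clone 4 was above clone 2 in 22 of 25. Backgrounds were 20.4% higher and 17.1% lower in clone 4, 31.7% and 31.8% in clone 2, and 30% for clone 4 above clone 2. Without WT replicate 1, 2 or 3 the pooled count was 4. The endothelial genes Flt1 and Tek, receptors of VEGF and angiopoietin, rose by 0.72 (SE 0.10, FDR 0.0052) and 1.03 (SE 0.15, FDR 0.00632), and the myeloid genes Laptm5 and Csf1r by 1.66 (FDR 0.0343) and 1.78 (FDR 0.0451). Laptm5 was at 87.9 and 79.4 CPM in clone 2 and 25.1 and 29.3 CPM in clone 4, against 16.1 to 18.8 CPM in WT. Laptm5 and Csf1r lost their calls without any 1 of the WT or clone 2 libraries. Cd68, a macrophage marker, was at 22.9 and 23.2 CPM in clone 2 and 7.09 and 8.44 CPM in clone 4, against 6.55 to 7.15 CPM in WT (1.19, FDR 0.0772), and was called in clone 2. Of 6 measured genes of the blood-cell list, Fcer1g, Csf1r, Laptm5 and Cd68 were higher in clone 2 and none was lower, and Laptm5 and Runx1 were higher in clone 4. The part of blood-type cells in these values was not tested.

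**Figure D4:**
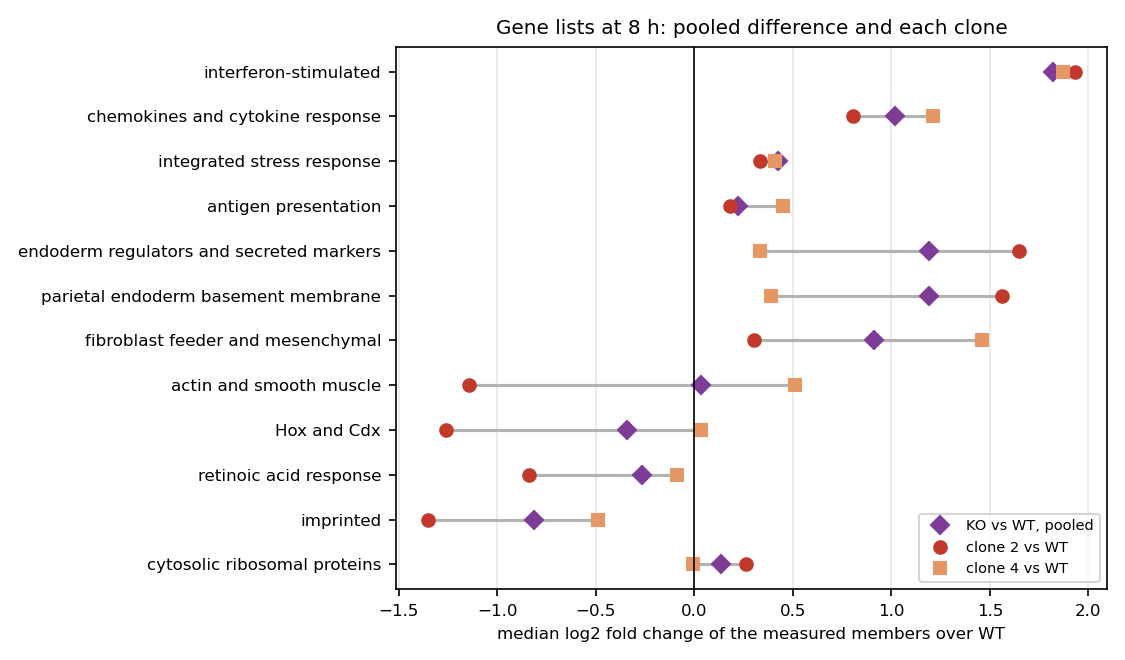
Median log2 fold change over WT of the measured members of 12 gene lists at 8 h, pooled (diamonds) and in clone 2 (circles) and clone 4 (squares), which share the WT libraries. The medians of the clones lie close together for interferon-stimulated genes (1.93 in clone 2 and 1.87 in clone 4). Single members did not, as the clones differed by edgeR's test in 37 of 47 (background 58.4%), 19 higher in clone 4 and 18 lower. The medians lie far apart for actin and smooth muscle genes (-1.14 and 0.51) and Hox genes (-1.26 and 0.03). Members low in WT could pass the low-count filter through 1 clone.

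Single genes that went opposite ways in the clones were Ednrb, Tmem200a, Anxa1, Arhgap30, Ankrd1 and Ccnd1. Ccnd1, the cyclin that drives entry to S phase, was at 30.2 and 28.4 CPM in clone 2 and 175 and 185 CPM in clone 4, against 65.9, 73.6, 69.1 and 69.5 CPM in WT, so that the KO mean near WT hides both. Anxa1, a phospholipid-binding protein, was at 57.6 and 47.5 CPM in clone 2 and 360 and 375 CPM in clone 4, against 134 to 157 CPM in WT. Ednrb, the endothelin B receptor, was at 10.6 and 11.8 CPM in clone 2 and 1.5 and 1.29 CPM in clone 4, against 2.63 to 6.02 CPM in WT. Log2 differences of clone 4 minus clone 2 were 2.63, 2.82 and -2.98 with FDRs of 8.43e-31, 6.71e-27 and 1.97e-12 by edgeR's test.

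Ptk6, an epithelial kinase, was called higher in clone 2 and not called in clone 4, at 83.5 and 79.97 CPM in clone 2 and 5.69 and 2.70 CPM in clone 4, against 2.41 to 4.39 CPM in WT. The other genes of this kind were Fxyd3, Fcgbp and Ttr. The pooled call of Fxyd3 was lost without any 1 of the WT or clone 2 libraries, and clone 4 minus clone 2 was -2.80 to -4.25 for the 4 genes. Ttr, the thyroxine carrier made by visceral endoderm, was at 29.9 and 29.8 CPM in clone 2 and 4.08 and 2.93 CPM in clone 4, against 2.52 to 3.63 CPM in WT. Genes called lower in clone 2 and not called in clone 4 were Ism1, Rspo3, Sorbs2 and Nkain3. Rspo3, an enhancer of Wnt signals, was at 0.480 and 0.711 CPM in clone 2 and 10.5 and 11.7 CPM in clone 4, against 12.6 to 14.4 CPM in WT.

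Ereg, Tfpi2, Olr1 and Ccbe1 were called higher in clone 4 and not called in clone 2. Ereg, a ligand of the EGF receptor, was at 1.92 and 2.13 CPM in clone 2 and 29.4 and 33.5 CPM in clone 4, against 0.936 to 1.90 CPM in WT. Rhox6, Pdk1, Smtnl2 and Slc16a3 were called lower in clone 4 and not called in clone 2. Rhox6, a neighbour of Rhox9, was at 14.6 and 11.9 CPM in clone 2 and 3.01 and 1.64 CPM in clone 4, against 11.6 to 14.5 CPM in WT. Clone 4 minus clone 2 was called for all 8 genes.

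Whether the KO against WT difference at 8 h differed from that at 0 h was tested in a joint fit of 31 libraries, in which 0 h had 3 KO libraries (2 of clone 2 and 1 of clone 4) and 4 WT libraries. Of 14944 genes, 2 were called (0.0134%), and 1587 had an unadjusted p under 0.05. The count depended on the fit: DESeq2 called 48, a fit with clone and time groups 1269, and leaving out 1 library gave 2 to 11. The 12 largest increases were called at 0 h too, with log2 differences of 2.46 to 4.32, and so were the 12 largest decreases, at -4.03 to -1.66. Their change from 0 h to 8 h was not called in any, the smallest FDR being 0.331.

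The gene with the larger called change was Dhrs3 (chr4:144892534-144928209, GRCm38). At 0 h it was at 62.6 and 47.3 CPM in clone 2 and 112 CPM in clone 4, against 126, 110, 109 and 106 CPM in WT. At 8 h it was at 20.6 and 16.2 CPM in clone 2 and 10.1 and 11.7 CPM in clone 4, against 4.14, 3.53, 3.88 and 4.14 CPM in WT, all in joint scaling. Dhrs3 thus dropped by 2.33 on the log2 scale in KO cells (SE 0.22) and dropped by 4.84 in WT cells (SE 0.24), and the difference between KO and WT changed from -0.61 at 0 h to 1.90 at 8 h, a change of 2.51 (SE 0.32, FDR 0.000361). The 8 h groups did not overlap and the 0 h groups did.

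Krt19, a keratin of simple epithelia and of parietal endoderm (chr11:100140810-100145926, GRCm38), was at 46.3 and 43.9 CPM in clone 2 and 52.7 CPM in clone 4 at 0 h, against 200, 188, 152 and 137 CPM in WT. At 8 h it was at 84.5 and 75.3 CPM in clone 2 and 86.9 and 94.7 CPM in clone 4, against 117, 109, 130 and 117 CPM in WT. Its share of the library rose in KO cells by 0.84 (SE 0.15) and fell in WT cells by 0.51 on the log2 scale (SE 0.13), a change of 1.36 (SE 0.20, FDR 0.00238). Both calls held whichever 8 h library was left out; with the 0 h and 8 h libraries alone Krt19 kept its call and Dhrs3 had 2.53 with an FDR of 0.0824. CPM are shares of the RNA that is left, so a rise after the block does not show new transcription.

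**Figure D5:**
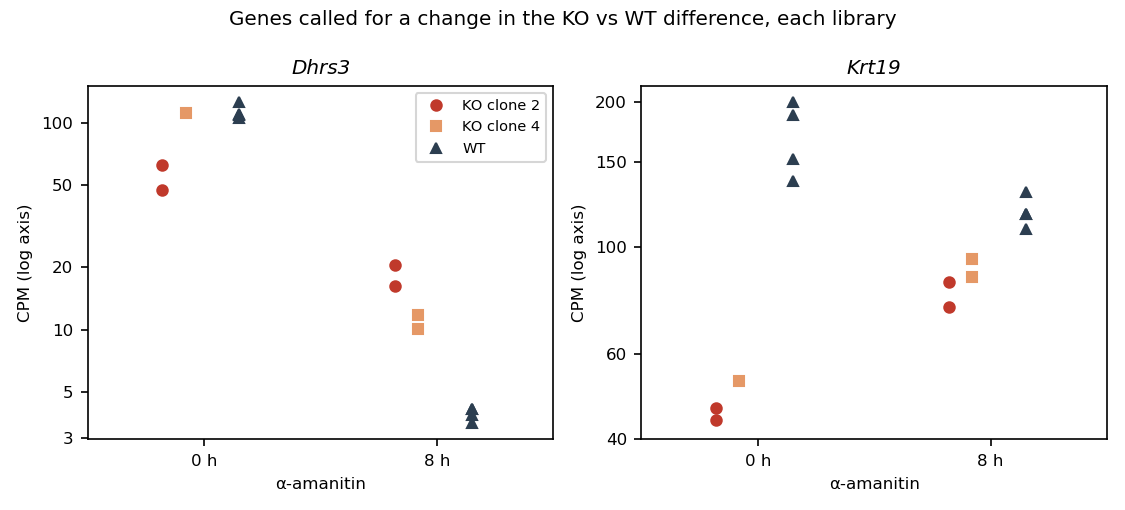
CPM on a log axis of Dhrs3 (left) and Krt19 (right) at 0 h and 8 h of α-amanitin, one point per library, for KO clone 2, KO clone 4 and WT. Dhrs3 lies at 10.1 to 20.6 CPM in KO libraries and 3.53 to 4.14 CPM in WT libraries at 8 h, and Krt19 is nearer to WT at 8 h than at 0 h.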

How the data were processed

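RNA was sequenced as poly(A)-selected, stranded libraries (KAPA kit), per the labels' protocols. The authors deposited raw counts per gene, 1 column per library, per the file headers; the submitters' processing notes name GRCm38, mm10, STAR 2.4.0.1 and FastQC 0.11.9 beside TopHat, Cufflinks, Cuffdiff and DESeq2. Which program counted reads, with what strand setting and annotation, is not given in the sources used here, so overlapping and antisense genes are uncertain. A pair of further deposited files lists gene symbols from RNA immunoprecipitation.

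Lines with a repeated gene identifier were dropped (110 of 51520). Counts were TMM-scaled, filtered with filterByExpr and tested with edgeR 4.0.16 in R 4.3.3 (robust quasi-likelihood, Benjamini-Hochberg over all genes): KO against WT with clones pooled, clone 2, clone 4 and WT as 3 groups, and 31 libraries in 8 genotype and time groups. SE is the log2 difference over the square root of F. The scripts were tested on simulated data. Depth was 8.62 ± 1.09 M counts (SD, n = 8). limma 3.58.1 and DESeq2 1.42.0 were alternatives, as were other scalings, filters, left-out libraries and a replicate block.

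Named genes were Caprin1, the 12 largest increases and decreases at a mean of at least 5 CPM that were called pooled and in both clones without overlap with WT, the members with the smallest p in each list and direction, and genes that differed by clone. Further genes were named to complete a group. The members and lists were chosen with earlier results of these data known.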

Additional observations from a re-analysis of the deposited data

Results flagged for a closer look

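Clone 4 and clone 2 differed by edgeR's test in 94 of 132 named genes, against 58.4% of all genes tested, and in 28 of these by at least 2 on the log2 scale. Some of the 132 were named because the clones differed, so this count is partly set by the choice. Clone 4 was below clone 2 for Ptk6 (-4.25), Arhgap30 (-3.17), Ttr (-3.06), Fxyd3 (-3.02), Ednrb (-2.98), Fcgbp (-2.80) and Rhox6 (-2.47). Clone 4 was above clone 2 for Ccl2 (2.09), Pdgfb (2.14), Calcr (2.42), Ccbe1 (2.49), Tm4sf1 (2.55), Ccnd1 (2.63), Cavin2 (2.72), Tmem200a (2.78), Nnat (2.79), Anxa1 (2.82), Tfpi2 (3.01), Caprin1 itself (3.05), St6gal2 (3.10), Ankrd1 (3.19), Olr1 (3.24), Bmp5 (3.78), Nkain3 (3.84), Ereg (3.95), Rspo3 (4.18), Sorbs2 (4.32) and Ism1 (4.32). The signed KO against WT difference moved up from 0 h to 8 h by 2.51 for Dhrs3 and 1.36 for Krt19. For Dhrs3 it went from -0.61 to 1.90. For Krt19 it went from -1.83 to -0.47, so the difference became smaller in size.

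The highest or lowest library stood apart by Dixon's gap criterion in 9 of 264 groups of 4 libraries, a criterion that chance meets in about 1 in 20 groups of like samples. The KO groups hold 2 libraries of each clone, to which that rate need not apply. Among KO libraries these were the lowest of Lrp2 (1160 CPM) and the highest of Rpl22l1 (16.5 CPM), mt-Nd6 (597 CPM) and mt-Nd5 (2040 CPM). Among WT libraries they were the highest of Il1rl1 (1.76 CPM) and Zfp36l3 (9.03 CPM) and the lowest of Zfp36l1 (153 CPM), Nkx6-1 (1.25 CPM) and Ankrd1 (5.43 CPM).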

How the results depend on the processing

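Leaving out 1 library gave 619 to 3589 pooled calls, 8019 to 9333 for clone 2, 4084 to 5520 for clone 4, 7204 to 8433 between the clones and 2 to 11 for the change from 0 h to 8 h. Against 2354 pooled calls, edgeR called 0 with WT replicates 1 and 2 only (2654 at an unadjusted p under 0.05), 1 with WT replicates 3 and 4 only and 8087 with the mean of the 2 clones in 3 groups. With the replicate block 0 pooled genes were called (1708 at an unadjusted p under 0.05), 8438 for clone 2, 4464 for clone 4, 8329 between clones and 2 for the change. Whether equal replicate numbers mark a shared batch is not given in the sources used here. Same-numbered libraries of the clones correlated at 0.118 and same-numbered KO and WT libraries at -0.0903 to 0.0243. With 2 libraries of each clone these values cannot settle it. DESeq2 called 3341 pooled genes and limma-voom 2241 (1095 higher, 1146 lower). The change from 0 h had 7 calls under library totals, 4 at a mean of at least 1 CPM, 48 with DESeq2, 7 with limma-voom, 1269 with clone and time groups and 1 with the 0 h and 8 h libraries only.

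Values that turned sign belonged to genes not called in that comparison, and the cause was not tested. Under library totals these were Olr1 (-0.005408) and Rhox6 (-0.1317) in clone 2 and Sorbs2 (-0.02618) in clone 4. Pooled Ednrb and Anxa1 became -0.03012 and -0.07837 with limma-voom and -0.1099 and -0.08001 with the mean of the 2 clones. In clone 2, Smtnl2 and Slc16a3 became 0.03228 and 0.1329 under the replicate block and 0.04092 and 0.1368 with WT replicates 1 and 2 only, and Rhox6 became -0.04026 with WT replicates 3 and 4 only. With 1 library left out, clone 2 values ran from -0.0415 to 0.3409 for Olr1, -0.1278 to 0.175 for Rhox6 (-0.01853 without WT replicate 2) and -0.1825 to 0.06115 for Slc16a3 (0.01438 without clone 2 replicate 1). Clone 4 values ran from -0.2393 to 0.846 for Ptk6, -0.7197 to 1.339 for Fcgbp, -0.04851 to 0.4386 for Ttr and -0.0939 to 0.1657 for Sorbs2 (-0.01488 without WT replicate 3).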

Other observations

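The Y-linked genes Ddx3y, Uty and Kdm5d differed between the clones by edgeR's test, and Eif2s3y did not. Ddx3y was at 3.12 and 2.64 CPM in clone 2 and 38.2 and 34.5 CPM in clone 4, against 42.3 to 46.3 CPM in WT. Uty was at 0.600 and 1.02 CPM in clone 2 and 15.4 and 15.5 CPM in clone 4, against 19.4 to 21.2 CPM in WT. Kdm5d, at low levels, was at 0.240 and 0.407 CPM in clone 2 and 2.36 and 1.41 CPM in clone 4, against 0.126 to 0.329 CPM in WT. Eif2s3y was at 34.6 and 42.6 CPM in clone 2 and 39.7 and 40.2 CPM in clone 4, against 33.7 to 38.8 CPM in WT, so that the genes of this chromosome did not move together. Median log2 differences from WT over genes of single autosomes and the X chromosome ran from -0.0792 to 0.0841 in clone 2 and from -0.072 to 0.0356 in clone 4.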
